A study of Mus musculus with 8 samples.

Results

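The Ikaros family comprises 5 zinc-finger transcription factor genes, Ikzf1 (Ikaros), Ikzf2 (Helios), Ikzf3 (Aiolos), Ikzf4 (Eos) and Ikzf5 (Pegasus). They were taken as the rows with those symbols among the 52997 gene symbols of a count table, and all 5 were present. The libraries were made from CD4+ T cells of neonatal mouse liver. Each animal carried the same alleles, labelled Aire- Foxp3 GFP+ on a C57/Bl6 background, so no Aire-sufficient mice served as controls. Viable Foxp3-negative CD4+ cells with CD45 and the T cell receptor beta chain on their surface were sorted to 1000 per sample, and polyadenylated RNA was read for 25 bases from each fragment end. There were 4 groups of 2 libraries each, sorted as PD-1+ or PD-1- from mice aged 10 or 5 days. PD-1, encoded by Pdcd1, is an inhibitory receptor that T cells display after antigen recognition. Nothing in the labels ties a library to an individual mouse, so the p-values measure only the spread between these libraries. At 10 days that spread may be technical. At 5 days the 2 libraries of each group came from mice of different sex (below), so their spread also holds differences between mice.

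Ikaros proteins bind DNA through a cluster of zinc fingers near the N terminus and pair with one another through fingers at the C terminus. They recruit chromatin complexes such as NuRD and thereby mostly repress, and in some settings activate, their targets. In the T cell lineage Ikaros is present from the earliest progenitors onward and raises the threshold for activation. Aiolos is best known from B cells and from helper T cells after activation. Helios is known in mice from regulatory T cells, which depend on Foxp3, and from thymocytes that receive strong receptor signals. Eos is known as a partner of Foxp3, and the role of Pegasus in T cells is little described.

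The coding stretch of the second N-terminal finger is shown because 4 of the members encode the same residues there, and because reads of 25 bases could in principle be assigned to the wrong member there. Capitals mark bases that differ from Ikzf1.
Ikzf1: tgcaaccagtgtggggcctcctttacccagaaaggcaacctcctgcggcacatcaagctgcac
Ikzf2: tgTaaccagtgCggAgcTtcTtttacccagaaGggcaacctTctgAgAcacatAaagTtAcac
Ikzf3: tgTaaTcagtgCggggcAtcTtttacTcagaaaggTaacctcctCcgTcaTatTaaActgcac
Ikzf4: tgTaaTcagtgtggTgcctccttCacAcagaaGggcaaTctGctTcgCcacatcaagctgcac
Ikzf5: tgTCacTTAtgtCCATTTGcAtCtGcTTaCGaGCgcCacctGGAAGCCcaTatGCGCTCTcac
The 5 stretches are each 63 bases long on GRCm38, at chr11:11754024-11754086 (plus strand) for Ikzf1, chr1:69570581-69570643 (minus) for Ikzf2, chr11:98488940-98489002 (minus) for Ikzf3, chr10:128640229-128640291 (minus) for Ikzf4 and chr7:131392501-131392563 (minus) for Ikzf5. Each lies in a coding exon, exon 5 of the GENCODE M21 transcript for the first 4 members and exon 4 for Ikzf5. Ikzf2, Ikzf3 and Ikzf4 differed from Ikzf1 at 12, 12 and 10 bases, none of which altered any of the 21 encoded residues. Ikzf5 differed at 37 bases and kept 5 of the 21 residues.

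Despite this likeness, very little sequence was long enough to be confused. Of all 25-base words in the annotated transcripts, 2 of 5821 in Ikzf1, 4 of 11704 in Ikzf2, 2 of 8728 in Ikzf3, 4 of 6076 in Ikzf4 and 0 of 5758 in Ikzf5 also occurred in another member. The exons of Pstk, a kinase gene of selenocysteine synthesis on the opposite strand, covered 4652 of the 5721 exonic bases of Ikzf5. The transposon-based libraries do not mark strand, so reads of Ikzf5 and Pstk could not be told apart over that stretch. Only short exonic overlaps were found for Ikzf2 (144 bases, with the antisense Gm29114) and Ikzf4 (37 bases, with Gm26876), and none for Ikzf1 and Ikzf3.

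Library totals ranged from 1473216 to 3019551 counts, and 11490 symbols had enough counts to be tested, among them all 5 members. Pdcd1 had 564 to 1953 counts in the PD-1+ libraries and 1 to 5 in the PD-1- libraries. Aire had 2 counts in 1 library, 1 count in another and 0 in the other 6, which does not test the genotype because Aire is a gene of thymic epithelium and barely transcribed in T cells. Both 5-day libraries numbered 3 came from males (601 and 672 counts of Y-linked genes) and the other 6 libraries from females, which mixes sex with age in part. All 7 defining CD4 T cell markers were detected in every group. CPM are counts scaled to library size over the tested genes and corrected by TMM. Summed markers of several other cell types differed between PD-1+ and PD-1- libraries. Over both ages, the 6 hepatocyte markers summed to 26.3 to 78.2 CPM for PD-1+ libraries against 10.2 to 19.8 CPM for PD-1- libraries. Serpina1a was at 0 in PD-1- cells of both ages and Ttr at 0 in those of 10 days. Alb had the widest gap, averaging 30.4 CPM for PD-1+ libraries against 2.11 CPM. Afp averaged 11.7 against 11.5 CPM. It was higher for PD-1+ libraries at 5 days (16.6 against 10.3 CPM) and lower at 10 days (6.73 against 12.7 CPM). Of the 4 tested hepatocyte markers, 3 were called higher and 0 lower over both ages, where 21.9% and 19.6% of all tested genes were. The 5 gamma-delta T cell markers in the table summed to 29.5 to 44.2 CPM in PD-1+ and 6.16 to 26.0 CPM in PD-1- libraries, with Tcrg-C4 at 0 in 5-day PD-1- cells. At 5 days 3 of the 4 tested gamma-delta markers were called higher, where 17.6% of all tested genes were. At 10 days 0 of these 4 were called, where 29.3% of all tested genes were. The 6 markers of NK and innate lymphoid cells summed to 26.4 to 61.8 CPM in PD-1+ and 1.62 to 23.3 CPM in PD-1- libraries. Klra8 was at 0 in every group except 10-day PD-1+ cells. Most of the PD-1+ sum was Il1rl1, at 42.6 CPM on average against 1.22 CPM in PD-1- libraries. Eomes also averaged higher, while Ncr1, Klrb1c and Klre1 averaged lower (0.386, 0.514 and 0.354 against 4.07, 5.21 and 3.02 CPM). Of the 4 tested markers, 1 was called higher and 2 lower over both ages. Among all tested genes 21.9% were higher and 19.6% lower. The 6 macrophage markers overlapped, summing to 21.1 to 28.5 CPM in PD-1+ and 2.60 to 26.1 CPM in PD-1- libraries. Their sums were apart at 10 days only, at 22.8 to 28.5 CPM in PD-1+ and 2.60 to 3.89 CPM in PD-1- libraries. Adgre1, Clec4f, Lyz2 and Cd5l were at 0 in 10-day PD-1- cells. The 4 plasma cell markers summed to 114 to 238 CPM for PD-1+ libraries against 62.8 to 97.1 CPM for PD-1- libraries. Nearly all of each sum was Xbp1, at 168 CPM on average for PD-1+ libraries against 77.1 CPM for PD-1- libraries. Xbp1 was called higher and was the single one of these markers with enough counts to be tested. Sdc1, Jchain and Tnfrsf17 averaged 1.29, 0.119 and 0.119 CPM for PD-1+ libraries against 1.13, 0.385 and 0 CPM. Tnfrsf17 was at 0 in every group except 5-day PD-1+ cells. Erythroid markers, 7 in all, went the other way, at 2.06 to 5.34 CPM for PD-1+ libraries against 11.1 to 29.8 CPM for PD-1- libraries. The 2 CD8 genes summed to 6.18 to 27.4 CPM for PD-1+ libraries against 27.5 to 47.6 CPM for PD-1- libraries. Their averages moved in opposite directions. Cd8b1 averaged 9.49 CPM for PD-1+ libraries against 35.1 CPM for PD-1- libraries, and Cd8a 5.85 against 2.98 CPM. Over both ages 1 of these 2 genes was called lower and 0 higher. B cells also use Ikaros and Aiolos, and their 6 markers overlapped, at 29.5 to 52.5 CPM in PD-1+ and 11.0 to 79.5 CPM in PD-1- libraries. Of the 4 markers of plasmacytoid dendritic cells, Irf8, which activated T cells also express, was higher (3.40 ± 0.20, edgeR adjusted p = 8.57e-09). Bst2 and Tcf4 were not called over both ages. At 5 days 1 of the 3 tested markers was called higher and 1 lower, where 17.6% and 16.7% of all tested genes were. Siglech was at 0 at 5 days in both populations. At 10 days it had 34 counts in 1 PD-1- library and 0 in the other, and 1 count in the PD-1+ libraries together. The part of these cells in the results below was not tested. In bulk RNA, fewer cells that express a gene and less RNA per cell cannot be told apart.

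In PD-1+ cells, set against PD-1- cells, Helios and Aiolos transcripts were higher and Ikaros transcripts lower. Ikzf2 was 12.5-fold higher over both ages, Ikzf3 2.39-fold higher and Ikzf1 1.47-fold lower. With edgeR's quasi-likelihood test and Benjamini-Hochberg adjustment over all tested genes, 2 members were higher, 1 was lower and 2 did not pass the threshold of 0.05. In the same comparison 41.4% of all tested genes passed it, 21.9% as higher and 19.6% as lower, so calls were common among all genes. The same 3 members had library ranges that did not overlap between the populations, as did 34.8% of all tested genes. At 10 days 2 members were higher and 1 lower, where 29.3% of all genes were called, 16.4% as higher and 12.9% as lower. At 5 days 2 were higher and 2 lower, where 34.3% of all genes were called, 17.6% as higher and 16.7% as lower. With 2 libraries a group, ranges that do not overlap are frequent, at 64.8% of all genes between populations at 10 days and 68.7% at 5 days.

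**Figure D1:**
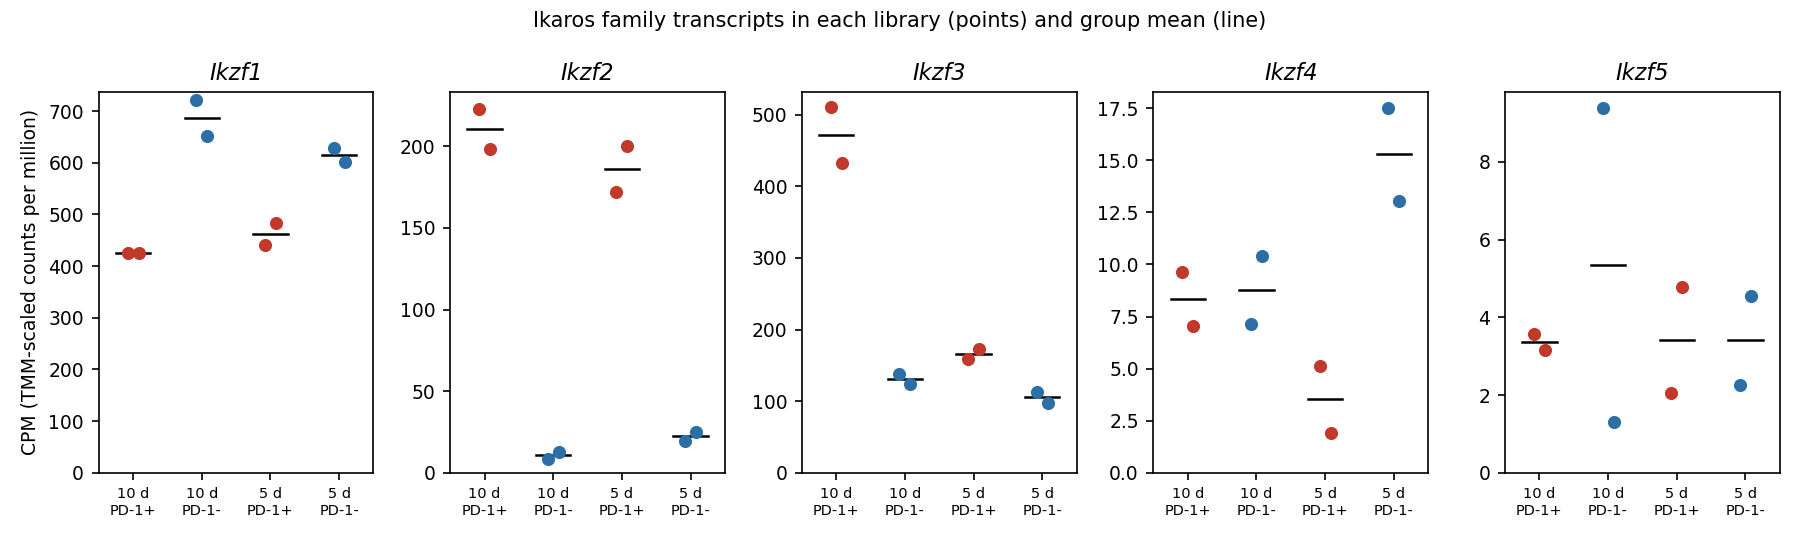
CPM of the 5 Ikaros family genes in each of the 8 libraries (points) with the mean of each group of 2 (line), on linear axes that start at 0 and differ between genes. Ikzf2 is at 172 to 223 CPM in PD-1+ and at 8.42 to 24.98 CPM in PD-1- libraries, and Ikzf3 reaches 433 and 511 CPM in 10-day PD-1+ libraries.

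Ikzf2 had the widest gap of the family. It lies on chromosome 1 from 69531214 to 69687245, on the minus strand (GRCm38, as for the coordinates below). It had 625 and 564 counts in 10-day PD-1+ libraries, 223 and 198 CPM, against 26 and 20 counts in 10-day PD-1- libraries, 8.42 and 13.01 CPM. At 5 days it had 334 and 420 counts in PD-1+ libraries, 172 and 201 CPM, against 61 and 44 counts in PD-1- libraries, 19.8 and 24.98 CPM. Every PD-1+ library was thus far above every PD-1- library, at both ages. The log2 fold change was 3.65 ± 0.25 (SE, n = 4 libraries per population) over both ages, the 331st largest in size of the 11490 genes tested (edgeR adjusted p = 1.26e-07). Within ages it was 4.36 ± 0.25 at 10 days and 3.08 ± 0.22 at 5 days (edgeR adjusted p = 2.04e-09 and 3.23e-08). Foxp3, the factor with which Helios is usually found in regulatory T cells, ran the other way. Foxp3 had 0 to 2 counts in the PD-1+ libraries and 10 to 32 counts in the PD-1- libraries. All libraries were sorted as Foxp3-negative, so these are counts left within the gate and do not test how Helios relates to Foxp3.

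The larger Helios gap at 10 days did not pass the test of the difference. The PD-1 difference of Ikzf2 was 1.28 ± 0.33 larger on the log2 scale at 10 than at 5 days (edgeR adjusted p = 0.0577 for the interaction, for which 2.12% of all tested genes were called). With genes of few counts kept in the fit it was called (1.34, edgeR adjusted p = 0.0113). PD-1+ cells were at 210 ± 17.3 CPM at 10 days and 186 ± 20.2 CPM at 5 days (SD, n = 2 each), a difference of 0.18 ± 0.19 that was not called (edgeR adjusted p = 0.592). PD-1- cells were at 10.7 ± 3.24 CPM at 10 days and 22.4 ± 3.69 CPM at 5 days, a difference of -1.11 ± 0.27. The PD-1- libraries of the 2 ages did not overlap, as for 39.9% of all tested genes, and the difference was not called (edgeR adjusted p = 0.122). Of the 5 members 0 were called with age in PD-1- cells by edgeR, as were 0 of the 3 that DESeq2 gave an adjusted p, and Ikzf2 alone had an unadjusted edgeR p below 0.05 there. Of all tested genes 0.27% were called in that comparison and 10.6% (1219 genes) had an unadjusted p below 0.05. The Ikzf2 difference with age in PD-1- cells was called in the fit with genes of few counts (-1.10, edgeR adjusted p = 0.0207).

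Ikzf3 separated the ages as well as the populations. It lies on chromosome 11 from 98464902 to 98546031, on the minus strand. It had 1435 and 1232 counts in 10-day PD-1+ libraries, 511 and 433 CPM, against 428 and 190 counts in 10-day PD-1- libraries, 139 and 124 CPM. In 5-day mice Ikzf3 had 308 and 361 counts in PD-1+ libraries, 159 and 172 CPM, against 349 and 172 counts in PD-1- libraries, 113 and 97.7 CPM. The 10-day PD-1+ libraries stood above the other 6, among which PD-1+ libraries were still above PD-1- libraries. The log2 difference between PD-1+ and PD-1- cells was 1.84 ± 0.16 at 10 days (edgeR adjusted p = 2.26e-07). It was 0.65 ± 0.16 at 5 days (edgeR adjusted p = 0.00588). The 5-day call was lost without PD-1- replicate 3 (0.56, edgeR adjusted p = 0.0514) and without both 5-day replicates numbered 3 (0.52, edgeR adjusted p = 0.164).

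The PD-1 difference of Ikzf3 was 1.198 ± 0.23 larger on the log2 scale at 10 than at 5 days (edgeR adjusted p = 0.0114 for the interaction). It was the single member called for the interaction, where 2.12% of all genes were. The call depended on 3 libraries. Without 10-day PD-1+ replicate 1 the difference was 1.07, without 10-day PD-1- replicate 2 it was 1.12 and without 5-day PD-1+ replicate 2 it was 1.10 (edgeR adjusted p = 0.0518, 0.0533 and 0.0887). Within PD-1+ cells alone, Ikzf3 was 2.85-fold higher at 10 than at 5 days, at 472 ± 55.3 and 165 ± 9.78 CPM (SD, n = 2 each; log2 fold change 1.51 ± 0.16, edgeR adjusted p = 1.51e-05). This was the single member called with age in PD-1+ cells, where 14.4% of all tested genes were called and 58.5% had library ranges that did not overlap. Leaving out any 1 library kept it between 1.39 and 1.63 (edgeR adjusted p of 0.00096 or less). Within PD-1- cells Ikzf3 was at 131 ± 10.6 CPM at 10 days and 105 ± 10.9 CPM at 5 days, which was not called (0.31 ± 0.16, edgeR adjusted p = 0.525). In descending order of mean Ikzf3 level, PD-1+ cells of 10 days came before PD-1+ cells of 5 days, and PD-1- cells of 10 days before those of 5 days. The PD-1- ages did not pass the test between them, and 5-day PD-1+ cells were not tested against 10-day PD-1- cells.

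Other T cell genes moved with age in the same PD-1+ libraries. Of the 7 CD4 T cell markers, 5 were higher at 10 than at 5 days in PD-1+ cells and 0 lower, where 14.4% of all tested genes were called. Among them were the coreceptor Cd4 (0.99 ± 0.15, edgeR adjusted p = 0.000327) and the receptor chain Trac (0.74 ± 0.15, edgeR adjusted p = 0.00311). The 7 markers summed to 5827 to 7094 CPM in 10-day PD-1+ libraries and 4025 to 4125 CPM in 5-day PD-1+ libraries, and 0 of the 7 were at 0. Their part in the Aiolos difference was not tested.

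**Figure D2:**
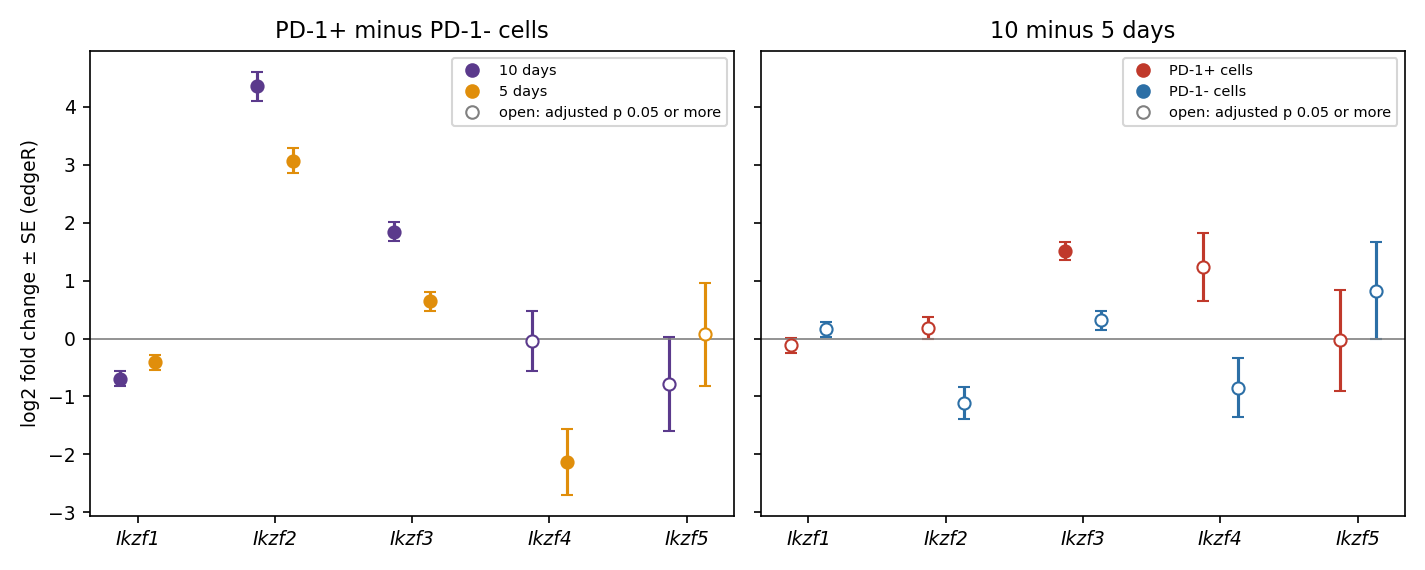
Log2 fold changes of the 5 members with standard errors (edgeR), for PD-1+ minus PD-1- cells at each age (left) and for 10 minus 5 days in each population (right); filled points have an adjusted p below 0.05. Ikzf2, Ikzf3 and Ikzf4 lie higher at 10 than at 5 days on the left, and of these only Ikzf3 was called for the interaction. Ikzf3 in PD-1+ cells (1.51) is the single filled point on the right.

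Ikzf1 was the most abundant member per exon length in each library and was modestly lower in PD-1+ cells. It lies on chromosome 11 from 11685003 to 11772926, on the plus strand. It had 1196 and 1210 counts in 10-day PD-1+ libraries, 426 and 425 CPM, against 2230 and 1002 counts in 10-day PD-1- libraries, 722 and 652 CPM. In 5-day mice Ikzf1 had 858 and 1012 counts in PD-1+ libraries, 442 and 483 CPM, against 1939 and 1061 counts in PD-1- libraries, 628 and 602 CPM. Every PD-1+ library was below every PD-1- library. The log2 fold change was -0.55 ± 0.12 over both ages (edgeR adjusted p = 0.00225) and -0.69 ± 0.13 at 10 days (edgeR adjusted p = 0.000902). The 5-day value was -0.41 ± 0.13 (edgeR adjusted p = 0.0253). That call was lost without any 1 of the 4 libraries of that age, with values of -0.38 and -0.43 without PD-1- replicates 2 and 3 and of -0.31 and -0.45 without PD-1+ replicates 2 and 3 (edgeR adjusted p = 0.129, 0.0743, 0.254 and 0.0897). Age made no called difference in PD-1+ cells (-0.12 ± 0.13, edgeR adjusted p = 0.606) or PD-1- cells (0.16 ± 0.13, edgeR adjusted p = 0.742), and the interaction was not called (-0.28 ± 0.19, edgeR adjusted p = 0.536).

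Ikzf4, the Eos gene on chromosome 10 from 128630843 to 128645991 (minus strand), was scarce. It had 27 and 20 counts in 10-day PD-1+ libraries, 9.62 and 7.03 CPM, against 22 and 16 counts in 10-day PD-1- libraries, 7.12 and 10.4 CPM. In 5-day mice the gene had 10 and 4 counts in PD-1+ libraries, 5.15 and 1.91 CPM, against 54 and 23 counts in PD-1- libraries, 17.5 and 13.1 CPM. The populations thus overlapped at 10 days and were apart at 5 days. At 5 days the log2 difference was -2.13 ± 0.57 (edgeR adjusted p = 0.00834). It was not called without PD-1- replicate 2 (-1.88, edgeR adjusted p = 0.0631), without PD-1+ replicate 3 (-1.54, edgeR adjusted p = 0.105) or without both replicates numbered 3 (-1.73, edgeR adjusted p = 0.108). At 10 days it was -0.04 ± 0.52 (edgeR adjusted p = 0.966). Over both ages it was -1.01 ± 0.47 (edgeR adjusted p = 0.0990), and it was called without 10-day PD-1- replicate 1 (-1.36, edgeR adjusted p = 0.0440) or without 10-day PD-1+ replicate 1 (-1.30, edgeR adjusted p = 0.0470). The interaction was 2.09 ± 0.77 and was not called (edgeR adjusted p = 0.189). Between 10 and 5 days Ikzf4 differed by 1.24 ± 0.58 in PD-1+ cells and by -0.85 ± 0.51 in PD-1- cells, neither of which was called (edgeR adjusted p = 0.174 and 0.597).

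Ikzf5, on chromosome 7 from 131388652 to 131410521 (minus strand), was near the limit of detection. It had 10 and 9 counts in 10-day PD-1+ libraries, against 29 and 2 in 10-day PD-1- libraries. At 5 days it had 4 and 10 counts in PD-1+ libraries, against 7 and 8 in PD-1- libraries. The populations overlapped, and 10-day PD-1- replicate 1 alone held 29 of the 46 counts in PD-1- libraries. The log2 difference over both ages was -0.39 ± 0.61 (edgeR adjusted p = 0.644), and 0.46 without that library (edgeR adjusted p = 0.654). Within ages it was -0.78 ± 0.81 at 10 days and 0.08 ± 0.89 at 5 days (edgeR adjusted p = 0.510 and 0.960). No difference of Ikzf5 was detectable at this depth, and its overlap with Pstk leaves its level uncertain. Pstk itself had 29 to 74 counts in PD-1+ and 36 to 69 in PD-1- libraries.

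Per exon length, the summed level of the family lay between 111 and 154 CPM per kb in the 8 libraries, while its makeup differed more. Annotated exons covered 5.78 kb in Ikzf1, 11.6 kb in Ikzf2, 8.75 kb in Ikzf3, 6.00 kb in Ikzf4 and 5.72 kb in Ikzf5. The 5 genes together were at 148 ± 8.25 CPM per kb in 10-day PD-1+ libraries and 137 ± 10.2 in 10-day PD-1- libraries, and at 116 ± 7.90 in 5-day PD-1+ libraries and 124 ± 4.33 in 5-day PD-1- libraries (SD, n = 2 each). Ikzf1 made up 49.96 ± 2.73% of that sum in 10-day PD-1+ libraries and 86.7 ± 0.14% in 10-day PD-1- libraries. At 5 days its share was 68.9 ± 0.308% in PD-1+ and 86.2 ± 0.462% in PD-1- libraries. These shares are a description of levels per exon length and were not tested.

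The smaller Ikaros share in PD-1+ cells was matched mainly by a larger Aiolos share at 10 days and mainly by a larger Helios share at 5 days. Ikzf3 held 36.4 ± 2.24% of the family sum in 10-day PD-1+ libraries and 10.9 ± 0.0757% in 10-day PD-1- libraries, and 16.3 ± 0.145% and 9.73 ± 0.667% in 5-day PD-1+ and PD-1- libraries. Ikzf2 held 12.3 ± 0.322% in 10-day PD-1+ libraries and 0.682 ± 0.254% in 10-day PD-1- libraries, and 13.8 ± 0.562% and 1.56 ± 0.312% in 5-day PD-1+ and PD-1- libraries. Ikzf4 and Ikzf5 stayed below 2.31% in each library. The Ikzf5 share was taken over its full exon length, and its overlap with Pstk leaves that share uncertain. The ratio of Ikzf3 to Ikzf1 per exon length was 0.732 ± 0.0848 in 10-day PD-1+ cells and 0.126 ± 0.00108 in 10-day PD-1- cells. It was 0.236 ± 0.00105 in 5-day PD-1+ cells and 0.113 ± 0.00834 in 5-day PD-1- cells.

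**Figure D3:**
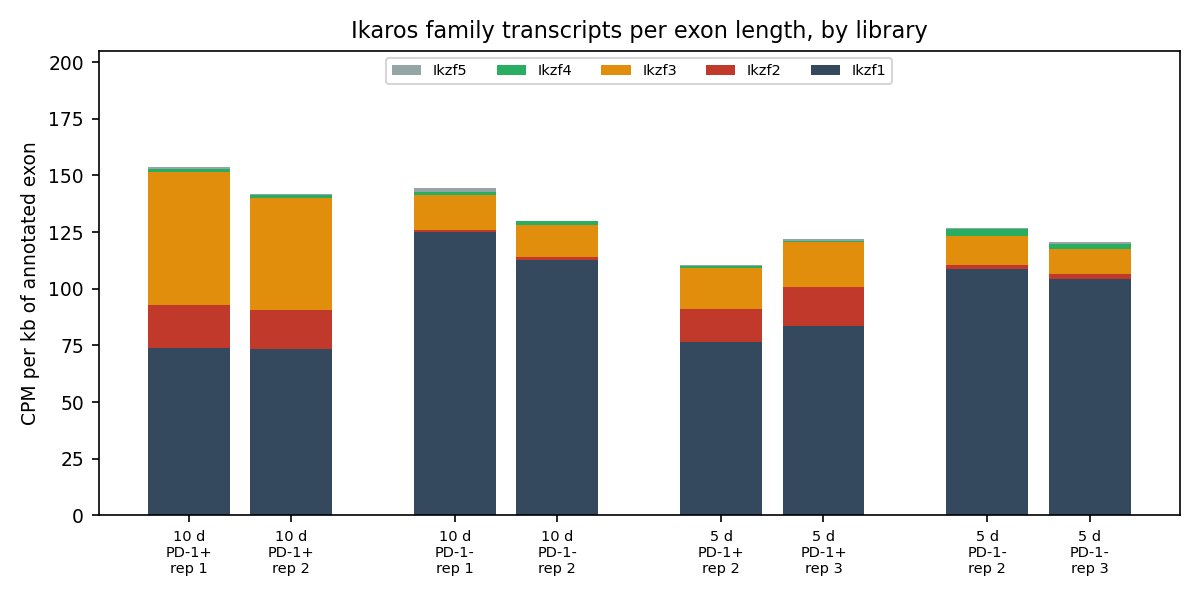
CPM per kb of annotated exon of the 5 members, stacked for each of the 8 libraries. Total height lies between 111 and 154 CPM per kb, and the Ikzf1 share is 49.96% on average in 10-day PD-1+ libraries and 86.7% in 10-day PD-1- libraries.

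Genes of the complexes with which Ikaros proteins work were called about as often as other genes over both ages. Of 17 NuRD and corepressor genes, 5 were higher, 3 lower and 9 not called in PD-1+ cells over both ages, with a median log2 fold change of 0.02, against -0.01 over all tested genes, of which 41.4% were called. At 10 days 0 were higher and 3 lower, and at 5 days 4 were higher and 1 lower, where 29.3% and 34.3% of all genes were called. Chd3, a chromatin remodelling ATPase (-1.06 ± 0.21, edgeR adjusted p = 0.0009), Gatad2b, a zinc-finger subunit of NuRD (-1.06 ± 0.18, edgeR adjusted p = 0.000353), and the corepressor Ctbp2 (-2.16 ± 0.63, edgeR adjusted p = 0.0131) were lower. The histone-binding subunit Rbbp7 was higher (0.59 ± 0.15, edgeR adjusted p = 0.00484). Of the 5 genes of the cereblon ubiquitin ligase, which in human cells degrades Ikaros and Aiolos when bound by thalidomide analogues, the adaptor Ddb1 was higher (0.44 ± 0.13, edgeR adjusted p = 0.0140) and 4 were not called. The substrate receptor Crbn, singled out after its values were seen, did not differ between the populations beyond the test (-0.12 ± 0.15, edgeR adjusted p = 0.566). In PD-1+ cells it was higher at 10 than at 5 days (1.04 ± 0.17, edgeR adjusted p = 0.000854).

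Genes reported as targets of Ikaros proteins in T cells differed in both directions. Of 22 listed, 16 had enough counts. Of these 8 were higher, 3 lower and 5 not called over both ages, with a median log2 fold change of 1.504, where 21.9% of all tested genes were higher and 19.6% lower. The counts were 8 higher and 3 lower at 10 days (16.4% and 12.9% of all genes) and 8 higher and 4 lower at 5 days (17.6% and 16.7% of all genes). The Th1 factor Tbx21 (5.32 ± 0.31) and the survival gene Bcl2l1 (2.12 ± 0.18) were higher, while Il7r, the IL-7 receptor chain (-4.25 ± 0.28), and the cell cycle inhibitor Cdkn1b (-1.35 ± 0.13) were lower (edgeR adjusted p of 1.33e-06 or less in each of the 4). The thymocyte genes Rag1, Rag2, Dntt and Ptcra and the Notch genes Hes1 and Notch3 had too few counts to be tested.

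**Figure D4:**
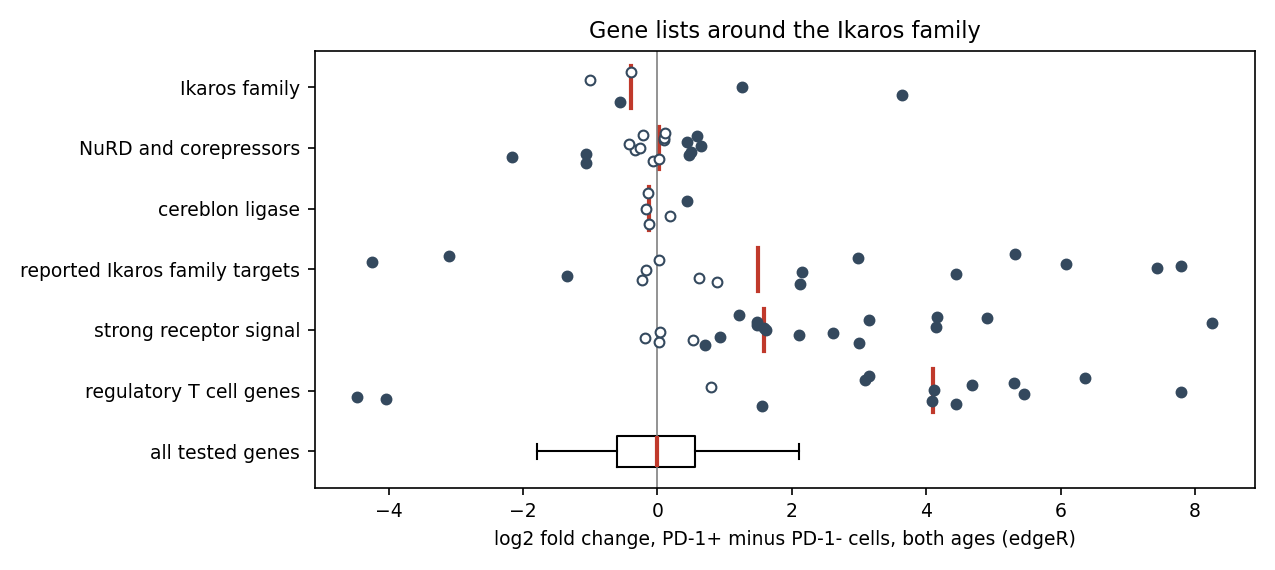
Log2 fold changes between PD-1+ and PD-1- cells over both ages (edgeR) for the tested genes of the family and of 5 lists, with filled points at an adjusted p below 0.05, and red lines at the median. The box holds the middle of all 11490 tested genes, with whiskers at the 5th and 95th percentiles; the NuRD median is 0.02 and the regulatory T cell median 4.10.

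Genes of strong receptor signals and of regulatory T cells, the settings in which Helios is best known, were mostly higher in PD-1+ cells. Of 19 genes of the first list, strong receptor signals and agonist selection, which include the sorted Pdcd1, 15 were higher, 0 lower and 4 not called (median 1.59), where 21.9% of all tested genes were higher and 19.6% lower. Next to Pdcd1, the adhesion receptor Cd44 (3.003 ± 0.14), the nuclear receptor gene Nr4a2 (4.14 ± 0.21) and the stress-response gene Gadd45b (2.62 ± 0.15) had the smallest p-values of that list. At 10 days 14 genes of that list were higher and 0 lower, where 16.4% and 12.9% of all tested genes were. At 5 days 14 were higher and 1 lower, where 17.6% and 16.7% of all tested genes were. Of 14 regulatory T cell genes tested, 11 were higher and 2 lower, with the same counts at each age (median 4.10 over both ages). Among all genes 21.9% were higher and 19.6% lower over both ages, with the shares at each age as given for the first list. The 2 lower genes were the neuropeptide receptor Gpr83 and Foxp3, which the sort kept low in every library. The smallest p-values there belonged to the co-receptor Nrp1 (5.31 ± 0.25), the TNF receptor Tnfrsf18 (3.15 ± 0.20), Gpr83 (-4.46 ± 0.29) and the co-inhibitory receptor Tigit (6.36 ± 0.33). Ctla4, Tnfrsf18 and Il10 each stood in more than 1 list. Within PD-1+ cells, 7 genes of the first list and 4 of the second were higher at 10 than at 5 days and 2 of each were lower, where 14.4% of all tested genes were called. The transcription factor Tox (2.57 ± 0.18, edgeR adjusted p = 2.34e-07) and Tigit (2.29 ± 0.23, edgeR adjusted p = 2.48e-05) were among the higher ones, named for this comparison after their values were seen.

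The genes most like each member were found by the root mean square difference of log2 CPM, centred on each gene's mean, over the 8 libraries, among the 7024 or 7025 other genes whose mean log2 CPM reached 4. For Ikzf3 they were Impact, a regulator of translation (difference 0.10, Pearson r = 0.994), Rab11fip4, an effector of vesicle recycling (0.14, r = 0.986), and the lysosomal protease gene Ctsd (0.14, r = 0.987). For Ikzf2 they were Traf1, a signalling adaptor of TNF receptors (0.30, r = 0.987), Serpinb6b, a protease inhibitor (0.33, r = 0.988), and Rgs1, a brake on G-protein signalling (0.33, r = 0.988). For Ikzf1 they were Bclaf1, Dnajc7 and Huwe1 (0.05 to 0.06, r of 0.977 to 0.989). For the scarce Ikzf5 they were Slc29a3, Dnajc10 and Msra, at a wider distance (0.36 to 0.44, r of 0.777 to 0.903). The libraries share their population and age, so these correlations describe the pattern and carry no test.

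**Figure D5:**
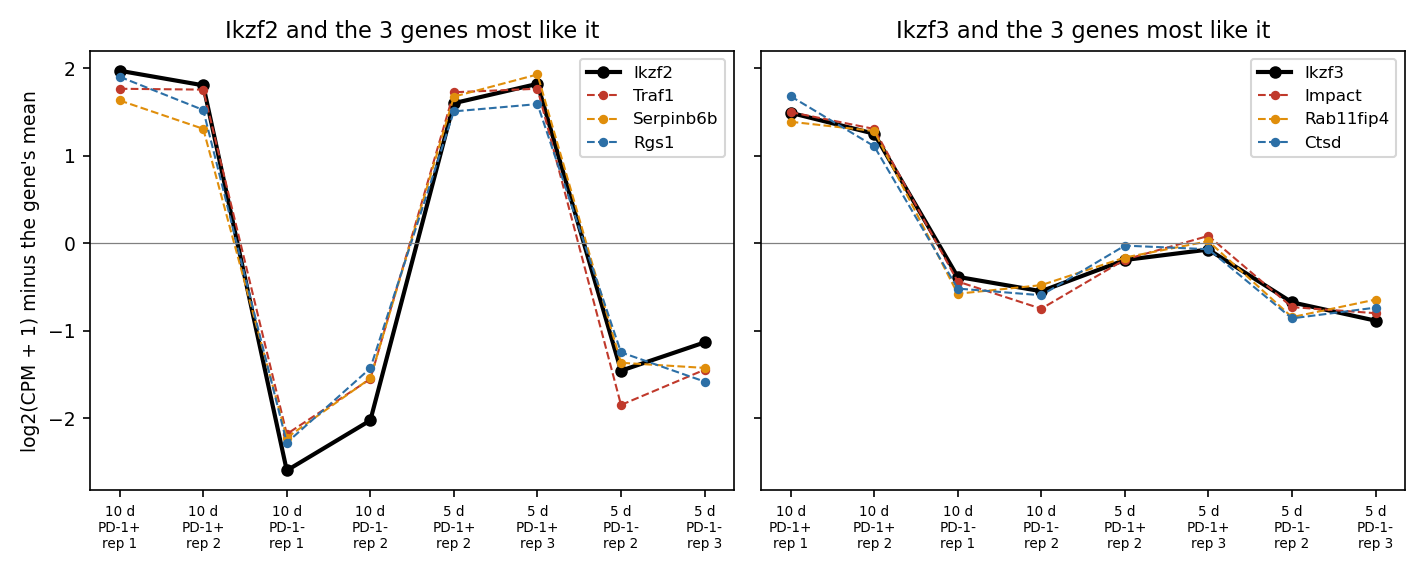
Log2(CPM + 1) of Ikzf2 (left) and Ikzf3 (right) and of the 3 genes most like each, minus the gene's mean over the 8 libraries. Ikzf2 and its companions are split by PD-1 at both ages, while Ikzf3 and its companions are highest in the 10-day PD-1+ libraries.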

How the data were processed

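RNA was sequenced from 8 samples of sorted liver CD4+ T cells. The authors deposited raw counts per gene symbol, in 1 table with 1 column per sample. Per the submitters' processing notes, STAR 2.5.4, featureCounts and the mm10 build were used. The sources used here do not give the annotation, the strand setting or the treatment of multiply mapped reads. Columns were matched to samples by title, and groups and replicate numbers came from the titles. Genes were kept by filterByExpr (11490 of 52997), scaled by TMM and tested with robust quasi-likelihood fits in edgeR 4.0.16 (R 4.3.3). The effect over both ages came from a fit with age and PD-1 as additive terms, and the other contrasts from a fit of the 4 groups. Benjamini-Hochberg adjustment ran over every tested gene, with calls below 0.05. Standard errors are the size of the log2 fold change over the square root of F. The procedure was tested on simulated data. Alternatives were DESeq2 1.42.0, RLE and upper-quartile scaling, no filter, a block for replicate number, and leaving out libraries. Coordinates, exon lengths and transcript sequences are from GENCODE M21 (GRCm38, the assembly of mm10). Fingers were found in the translated coding sequence by the spacing of cysteines and histidines. Named genes were the 5 members, the 3 genes most like each, and up to 4 genes per list with the smallest p. Markers and any other genes were named after their values were seen. The members and lists were chosen with earlier results of these data known. Replicates of a group differed by 4.00 to 8.61 times counting error (chi-square per degree of freedom), so none was counted as a repeat.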

Additional observations from a re-analysis of the deposited data

Results flagged for a closer look

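The PD-1 difference of Ikzf3 was larger at 10 than at 5 days by 1.198 ± 0.23 on the log2 scale, and the test of that difference between ages was passed (edgeR quasi-likelihood interaction, Benjamini-Hochberg adjusted p = 0.0114). At 10 days PD-1+ cells averaged 472 ± 55.3 CPM of Ikzf3 and PD-1- cells 131 ± 10.6 CPM (SD, n = 2 each). The averages of 5-day mice were 165 ± 9.78 CPM for PD-1+ cells and 105 ± 10.9 CPM for PD-1- cells. The call was lost without any 1 of 3 libraries, with values of 1.07 to 1.12. Without both male 5-day libraries it was 1.33 (edgeR adjusted p = 0.0276).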

How the results depend on the processing

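Of 406 comparisons of a member's log2 fold change with its value under an alternative, 371 kept their direction and their side of the threshold, 15 were no longer called, 5 were newly called and 15 changed sign. The calls of Ikzf1, Ikzf2 and Ikzf3 over both ages and at 10 days held under each alternative run. Sign changes concerned uncalled differences of Ikzf4 and Ikzf5 only. With no filter these were 0.023 for Ikzf4 at 10 days and 0.034 for the age effect of Ikzf5 in PD-1+ cells. Without both 5-day replicates numbered 3, Ikzf5 gave -0.11 at 5 days and 0.68 for age in PD-1+ cells. Leaving out 1 library gave -0.32 to 0.23 for Ikzf4 at 10 days. For Ikzf5 it gave -0.72 to 0.46 over both ages, -1.47 to 1.34 at 10 days, -0.62 to 0.60 at 5 days, -0.52 to 0.68 for age in PD-1+ cells, -1.30 to 1.52 for age in PD-1- cells and -1.55 to 1.27 for the interaction. Ikzf1 at 5 days was also lost with DESeq2 (-0.39, adjusted p = 0.0513) and with no filter (-0.41, edgeR adjusted p = 0.0664). The cause was not tested.

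The number of genes called with age in PD-1- cells was 31, against 180 with no filter, 75 with DESeq2 and 89 without both 5-day replicates numbered 3. For the interaction it was 244, against 469 with no filter and 148 without those libraries. At 5 days it was 3936, against 2561 without them. Leaving out 1 library gave 4034 to 4412 genes for PD-1 over both ages, 2195 to 3527 at 10 days, 2328 to 3951 at 5 days, 550 to 1839 for age in PD-1+ cells, 5 to 90 for age in PD-1- cells and 92 to 282 for the interaction. A group left with 1 library is assumed to vary like the others.

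The same-numbered libraries of an age deviated from their group means with correlations of 0.114 at 10 days and 0.0938 at 5 days over 11490 genes, and the labels state no shared animal. With the replicate block, 483 genes were called for the interaction, Ikzf2 among them (1.30, edgeR adjusted p = 0.0360), and Ikzf5 at 5 days gave -0.019. The paired fit changed no other call of a member. The counts of Ikzf5 and Ikzf4 limit what could be detected.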

Other observations

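Gm28112, a transcript annotated as sense-intronic within Ikzf2, was chosen after its values were seen. It had 122 and 242 counts in 10-day PD-1+ libraries, 43.5 and 85.0 CPM, against 14 and 11 counts in 10-day PD-1- libraries. At 5 days it had 125 and 281 counts in PD-1+ libraries, 64.3 and 134 CPM, against 22 and 28 counts in PD-1- libraries. Its log2 fold change over both ages was 3.33 ± 0.36 (edgeR adjusted p = 1.7e-05), and it shares no exonic base with Ikzf2. Reads of unspliced Ikzf2 would be counted there too and cannot be told apart from it. Gm12000, annotated antisense within Ikzf1 and also chosen afterwards, differed by -1.51 ± 0.35 on the log2 scale (edgeR adjusted p = 0.00318), with averages of 5.25 ± 1.58 CPM for PD-1+ libraries and 15.3 ± 2.64 CPM for PD-1- libraries (SD, n = 4 each). The libraries do not mark strand, so intronic reads of Ikzf1 cannot be told apart from it.

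The genes most like Ikzf4 over the 8 libraries were Gbp8, a guanylate-binding protein gene, Trim30a, a tripartite motif gene, and Pink1, a mitochondrial kinase gene (root mean square difference 0.30 to 0.31 on the log2 scale). Gbp8 and Trim30a are known as interferon-induced in mice. At 10 days PD-1+ cells averaged 111 ± 27.1 CPM of Gbp8 and PD-1- cells 86.2 ± 4.10 CPM (SD, n = 2 each). The averages of 5-day mice were 39.9 ± 8.42 CPM for PD-1+ cells and 158 ± 61.0 CPM for PD-1- cells.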
